A study of Homo sapiens with 8 samples.

Results

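The insulin-like growth factor (IGF) family examined here comprised 10 genes: the ligands IGF1 and IGF2, the receptors IGF1R and IGF2R, and the binding proteins IGFBP2, IGFBP3, IGFBP4, IGFBP5, IGFBP6 and IGFBP7. Members were taken by gene symbol, from probe sets annotated to a single gene, and where a gene had several, the one brightest on average was kept. This gave a value for 8 of the 10 members, out of 18417 genes measured in the same way. The only probe set of IGF2 is also annotated to INS and INS-IGF2, and that of IGFBP6 to C12orf57. A signal from these probe sets cannot be assigned to 1 gene, so IGF2 and IGFBP6 were not analysed here.

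The cells were U2OS, an established line derived from a human osteosarcoma, and their total RNA was hybridised to Affymetrix human gene arrays. One group of 4 cultures (labelled CDK9 Knock Down) received siRNA against CDK9, and the other 4 (labelled Nonspecific siRNA) a non-targeting siRNA. Both groups were transfected with the Hi-Perfect reagent at 10 nM siRNA and collected 72 h later. All 8 cultures belong to this single line, grew in medium with serum, and carried no other treatment that the labels name; the sources used here do not say how many different siRNAs targeted CDK9. The series describes the cultures as biological quadruplicates.

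IGF1 and IGF2 are secreted growth factors that activate IGF1R, a tyrosine kinase receptor whose adaptors, the IRS proteins, lead to the PI3K-AKT and RAS-ERK kinases. IGF2R, which is also the cation-independent mannose 6-phosphate receptor, has no kinase; it takes IGF2 to lysosomes and so clears it. IGF binding proteins hold the ligands outside the cell, and proteases such as PAPPA cleave some of them and release the ligand. Bone-forming cells secrete IGFs together with several binding proteins, IGFBP5 among them, and IGF1R signalling has been studied widely in osteosarcoma.

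The promoter windows of the 3 genes whose probe sets moved most in the family are shown here, because the siRNA target CDK9 acts on RNA polymerase II soon after it leaves a promoter. IGF1R is included through a probe set that was not kept (log2 difference -0.22). By the kept probe sets, IGFBP2 (-0.13) moved more than IGF1R (-0.06). They come from RefSeq on GRCh38.p14, run from 250 bases before to 50 bases after the annotated start, and are written 5′ to 3′ on the strand of the gene. Capitals mark GGGCGG, the core of the GC box, or its complement, with overlapping matches counted separately; TATAAA was searched as well, on both strands.
IGF2R (chr6:159968832-159969131, plus strand): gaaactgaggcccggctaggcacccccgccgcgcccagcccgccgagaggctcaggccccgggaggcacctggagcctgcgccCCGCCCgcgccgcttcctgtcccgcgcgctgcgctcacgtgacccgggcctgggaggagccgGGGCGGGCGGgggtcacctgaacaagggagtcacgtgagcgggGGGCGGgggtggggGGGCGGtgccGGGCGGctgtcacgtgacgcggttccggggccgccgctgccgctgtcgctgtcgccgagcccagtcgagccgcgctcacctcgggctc
IGF1R (chr15:98648289-98648588, plus strand): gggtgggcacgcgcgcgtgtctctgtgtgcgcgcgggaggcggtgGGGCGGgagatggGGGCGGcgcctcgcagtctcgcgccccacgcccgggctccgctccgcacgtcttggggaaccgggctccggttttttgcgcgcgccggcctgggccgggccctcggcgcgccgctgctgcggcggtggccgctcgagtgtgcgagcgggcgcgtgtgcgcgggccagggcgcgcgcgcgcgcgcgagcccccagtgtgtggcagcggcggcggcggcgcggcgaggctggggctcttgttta
IGFBP5 (chr2:216695500-216695799, minus strand): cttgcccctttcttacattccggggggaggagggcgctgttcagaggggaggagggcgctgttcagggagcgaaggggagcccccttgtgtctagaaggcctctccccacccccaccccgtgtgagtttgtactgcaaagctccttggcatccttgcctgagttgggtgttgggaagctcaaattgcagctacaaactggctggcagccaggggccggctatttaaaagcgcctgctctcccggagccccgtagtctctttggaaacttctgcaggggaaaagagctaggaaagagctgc
The windows of the receptors were rich in GC, with 78.7% G and C, 41 CpG dinucleotides and 6 GGGCGG matches in IGF2R, and 79.7%, 55 and 2 in IGF1R. The IGFBP5 window had 59.0% G and C, 9 CpG dinucleotides and 0 matches of GGGCGG. None of these 3 windows held TATAAA. Over all 35116 windows of the table the median was 58.7% G and C and 14 CpG dinucleotides, 44.95% held GGGCGG and 11.5% held TATAAA. Windows were found for 8 of the 10 members, 11 windows in all, of which 7 held GGGCGG and 1, that of IGFBP4, held TATAAA. The 2 windows of IGF1 had 43.7% and 42.3% G and C and no GGGCGG. Those of IGFBP2 had 55.3%, 70.0% and 56.7% G and C, and all but the last held GGGCGG. These matches describe the letters only; no binding was measured.

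The siRNA lowered its target in every array. The probe set of CDK9, the kinase of the elongation factor P-TEFb, retained 28.4% of its control signal (95% confidence interval 26.4 to 30.5%, n = 4 per group). Replicate 1 of both groups (array set 1) lay about 1 log2 unit below replicates 2 to 4 (array set 2), with array medians of 5.80 to 5.85 against 6.99 to 7.04. The numbering in the sample descriptions also has a gap between them, and each set holds equal numbers of both groups, 1 and 3. The limma fit therefore treated the set as a block, and arrays are compared within sets. Of all 18417 genes, 14.2% passed at a Benjamini-Hochberg adjusted p under 0.05, 6.73% higher and 7.47% lower.

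Most of the IGF family showed small differences after CDK9 silencing. Of the 8 measured members, 1 rose (IGF2R), 0 fell and 7 did not pass, so 12.5% were called beside 14.2% of all genes. At an unadjusted limma p under 0.05, IGF2R was higher and IGFBP5 lower, a cut that at least 5149 of all 18417 genes passed. The median log2 difference was -0.05 over the 8 members and 0.00 over all genes, and 0 of the 8 reached a 1.5-fold change. For the 7 members that did not pass, the 95% intervals together ran from 0.763 to 1.14 times the control level. Array medians were nearly equal within each set, so rises and falls here are relative to the other genes of an array. A change shared by most transcripts cannot be read from these values. A difference in bulk RNA does not separate a change in the number of expressing cells from a change in RNA per cell.

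**Figure D1:**
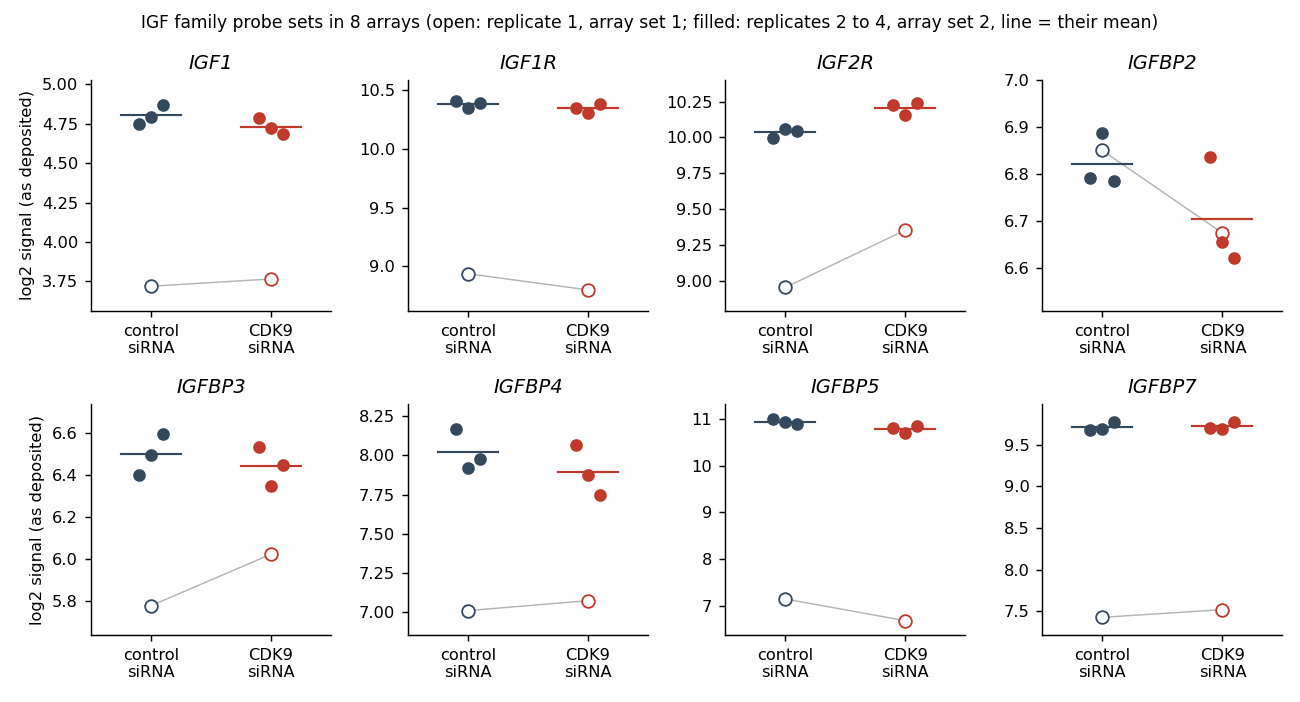
Log2 signal of the 8 measured IGF family members in each array, by group, with a separate vertical scale for each gene; open points are replicate 1 (array set 1, joined by a grey line), filled points are replicates 2 to 4 (array set 2) and short lines are the means of those 3. The IGF2R points of CDK9 siRNA lie above those of control siRNA within each array set, and the IGFBP5 points lie below.

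The ligand IGF1 was dim, that is, its mean over all arrays was among the lowest 30% of genes, those under 6.14. Its probe set (7965873) read 3.76, 4.79, 4.72 and 4.69 after CDK9 siRNA and 3.72, 4.75, 4.80 and 4.87 in the controls. The groups overlapped in array set 2 and the set 1 pair went the other way, and the difference of -0.04 ± 0.05 (SE, n = 4 per group) did not pass (limma, adjusted p = 0.669). At this signal the arrays do not show whether the transcript is present.

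The receptor IGF2R was the member that rose. Replicates 1 to 4 of its probe set (8123181) were at 9.35, 10.22, 10.15 and 10.24 after CDK9 siRNA and at 8.96, 10.00, 10.06 and 10.05 in the controls. The CDK9 siRNA arrays were thus higher in both sets, and in set 2 the lowest of them lay above the highest control. This amounted to a log2 difference of 0.23 ± 0.06 (SE, n = 4 per group), a 1.17-fold rise with a 95% interval of 0.10 to 0.36 on the log2 scale (limma, adjusted p = 0.0302). The set 1 pair differed by 0.40 and the set 2 means by 0.17. By p value IGF2R ranked 2001 among all genes. In the paired fit, which blocks on replicate number and called 9.17% of all genes, IGF2R did not pass (adjusted p = 0.0802); in array set 2 alone, where 18.1% passed, it did (adjusted p = 0.0485). The call was also lost when arrays were quantile normalized again (adjusted p = 0.0546) and on leaving out any of 5 single arrays, namely replicates 2 and 4 of CDK9 siRNA and replicates 2, 3 and 4 of the controls (adjusted p = 0.0606 to 0.0789).

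Both probe sets of IGF1R, the signalling receptor, had negative differences, and 1 of them passed. The kept probe set (7986359) read 8.80, 10.35, 10.31 and 10.38 after CDK9 siRNA and 8.94, 10.41, 10.35 and 10.39 in the controls. These groups overlapped in array set 2, and the difference of -0.06 ± 0.05 (SE, n = 4 per group; 95% interval 0.887 to 1.03-fold) did not pass (limma, adjusted p = 0.449). The other probe set (7986383) read 7.29, 9.12, 9.17 and 9.19 against 7.67, 9.32, 9.33 and 9.34, with every CDK9 siRNA array below every control array of its set. It fell by 0.22 on the log2 scale (± 0.05 SE; limma over all 19460 single-gene probe sets, of which 13.9% passed, adjusted p = 0.0264), to 0.856 times the control level. Its adjusted p was 0.0738 in the paired fit and 0.0379 in array set 2 alone. The kept probe set exceeded the other by 1.27 after CDK9 siRNA and by 1.11 in the controls, a change of 0.16. An exact two-sided permutation test over arrays within sets gave p = 0.05 for this change. That is the smallest p it can give here, so whether the 2 probe sets differ in response is not shown. Averaged over both probe sets, the IGF1R difference was -0.14, with an adjusted p of 0.0928. The sources used here do not say which part of the transcript each probe set reads.

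Among the binding proteins, IGFBP5 came closest to a call. IGFBP5 is a secreted protein that binds IGFs and also sits in bone matrix. Replicates 1 to 4 of its probe set (8058857) were at 6.68, 10.81, 10.70 and 10.85 after CDK9 siRNA and at 7.15, 11.01, 10.94 and 10.89 in the controls. Every CDK9 siRNA array lay below the controls of its set, although in set 2 the gap between 10.85 and 10.89 was small. This amounted to a log2 difference of -0.23 ± 0.07 (SE, n = 4 per group), 0.852 times the control level with a 95% interval of 0.763 to 0.951 (limma, adjusted p = 0.0590). The set 1 pair differed by -0.47 and the set 2 means by -0.15, and these did not differ past the threshold (adjusted p = 0.195). IGFBP5 passed as lower when dim genes were left out (adjusted p = 0.0348), when arrays were quantile normalized again (0.0380) and with a robust variance trend (0.0135). It was not called in the other 10 of 13 alternative fits with a block or within array set 2. Among these were the paired fit (0.114), array set 2 alone (0.121) and median centring (0.0857). Each fit without 1 array of set 2 also failed to call IGFBP5 (0.0531 to 0.145).

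IGFBP2, a binding protein that prefers IGF2, read 6.67, 6.84, 6.65 and 6.62 after CDK9 siRNA and 6.85, 6.79, 6.89 and 6.79 in the controls. The lower CDK9 siRNA values overlapped the controls through replicate 2, and the difference of -0.13 ± 0.06 (SE, n = 4 per group; 95% interval -0.27 to 0.01) did not pass (limma, adjusted p = 0.1995). IGFBP3, the main IGF carrier of blood together with IGFALS, read 6.02, 6.53, 6.35 and 6.45 against 5.78, 6.40, 6.50 and 6.60. The set 1 pair differed by 0.25 and the set 2 means by -0.05, and the fit over both gave 0.02 ± 0.08 (adjusted p = 0.901). IGFBP4, which PAPPA cleaves, read 7.07, 8.07, 7.88 and 7.75 against 7.01, 8.17, 7.92 and 7.98, a difference of -0.08 ± 0.09 (adjusted p = 0.620). The groups overlapped in array set 2 for IGFBP3 and IGFBP4 as well.

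IGFBP7, a related secreted protein with low affinity for IGFs, read 7.52, 9.70, 9.69 and 9.77 after CDK9 siRNA and 7.43, 9.67, 9.68 and 9.77 in the controls, and the groups overlapped in array set 2. The difference was 0.03 ± 0.05 (SE, n = 4 per group), with a 95% interval of -0.08 to 0.14 (limma, adjusted p = 0.755). Over the family, 2 of 8 members (IGF2R and IGFBP5) had groups that did not overlap in array set 2 and the same sign in array set 1, which held for 25.3% of all genes.

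**Figure D2:**
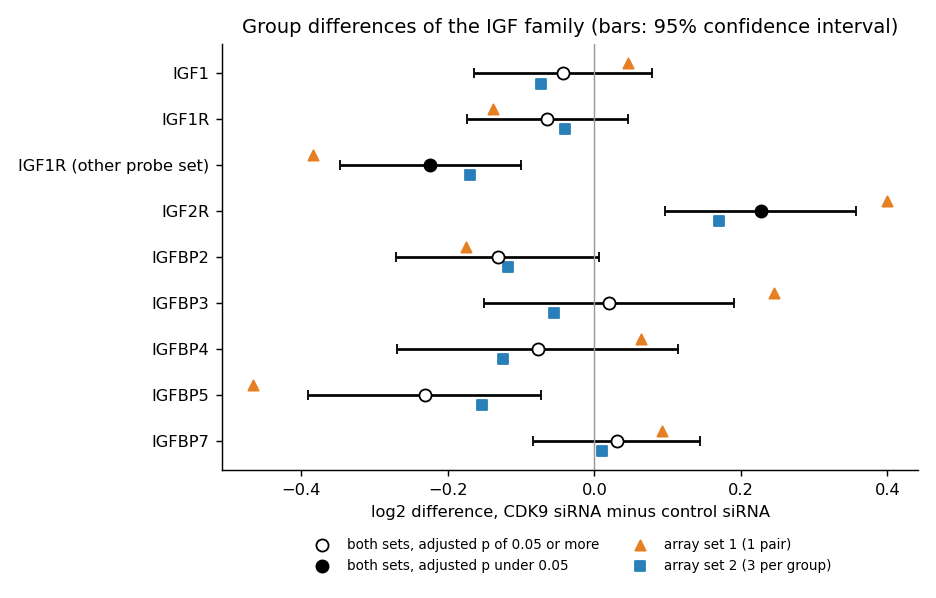
Log2 difference between CDK9 siRNA and control siRNA for each measured member and for the other IGF1R probe set, with 95% confidence intervals from the limma fit over both array sets (circles, filled where the adjusted p was under 0.05), and the separate differences of array set 1 (triangles) and array set 2 (squares). IGF2R at 0.23 and the other IGF1R probe set at -0.22 are the filled points, and IGFBP5 at -0.23 is open.

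The group difference did not pass a test for differing between array sets in any of the 8 members (0 of 8 in limma at an adjusted p under 0.05, beside 2.14% of all genes; adjusted p from 0.195 for IGFBP5 to 0.848 for IGFBP2). Array set 1 holds 1 array per group, so this test rests on the spread within array set 2.

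For 3 binding proteins the gap between the array sets was unlike that of most genes. In the controls, the array set 2 mean exceeded array set 1 by 1.07 at the median of all genes, and 90% of genes lay between 0.45 and 1.78. IGFBP5 stood 3.80 apart, the fifth widest gap of all 18417 genes, and IGFBP7 stood 2.28 apart, at percentile 98.9. IGFBP2 differed by -0.03, at percentile 0.45, so that relative to other genes it was high in array set 1. After CDK9 siRNA the gaps were 4.11 for IGFBP5, 2.20 for IGFBP7 and 0.03 for IGFBP2. When all arrays were quantile normalized again they were 2.75, 1.22 and -1.21 in the controls, with a median of -0.02 over all genes. The other members lay between 0.72 (IGFBP3) and 1.45 (IGF1R). IGFBP2 and IGFBP5 are neighbours on chromosome 2, with 0 protein-coding genes between them in the RefSeq table of GRCh38.p14. Whether the sets differ in culture, labelling or processing is unstated, and these are descriptions of 2 arrays against 6, with no test.

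**Figure D3:**
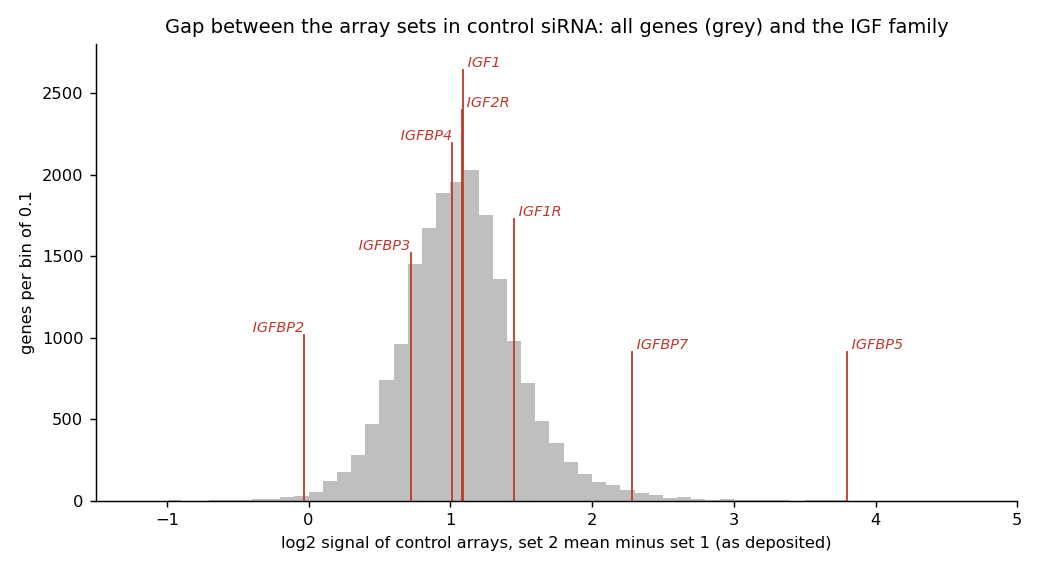
Distribution over all genes of the gap between array sets in control siRNA (mean log2 signal of the 3 set 2 arrays minus the 1 set 1 array; grey bars count genes in bins of 0.1), with the 8 IGF family members as vertical lines whose height has no meaning. IGFBP5 at 3.80 and IGFBP7 at 2.28 lie to the right of most genes, and IGFBP2 at -0.03 to the left.

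Around the family, 7 lists of pathway genes were examined with the same fit, with 90 of the listed genes measured. Of these 90, 10 rose and 12 fell, or 24.4% beside the 14.2% of all genes. The lists were chosen with results known, so their shares describe them only. Proteases of binding proteins and their regulators had the highest share of calls, with 5 of 13 higher and 1 lower (46.2%) and a list median of 0.09, against 0.00 over all genes. PAPPA, the metalloproteinase that cleaves IGFBP4 and IGFBP5, read 6.16, 7.36, 7.55 and 7.55 after CDK9 siRNA and 5.59, 6.74, 6.79 and 6.68 in the controls. The CDK9 siRNA arrays were higher in both sets without overlap, and PAPPA rose 1.63-fold (log2 0.70 ± 0.06 SE, n = 4 per group; limma, adjusted p = 0.000303). Its relative PAPPA2, which is dim, rose by 0.28. The urokinase PLAU rose by 0.59, ADAM12 by 0.56 and ADAM9 by 0.45, while MMP7 (dim) fell by 0.41. ADAM12 differed by 0.39 within set 2 and by more, 1.102, in the set 1 pair. The PAPPA inhibitor STC2 (dim, 0.08) missed the threshold (adjusted p = 0.489). Of these 13 genes, 6 were dim.

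Downstream of the receptors, 4 of 17 listed genes fell and 0 rose (23.5%, beside 14.2% of all genes), with a list median of -0.09. This list held adaptors and phosphatases together with SOCS1, SOCS2, SOCS3, NEDD4 and MDM2. IRS1, the docking protein that IGF1R phosphorylates, read 7.16, 8.38, 8.39 and 8.41 after CDK9 siRNA and 7.57, 8.83, 8.83 and 8.81 in the controls. It was lower in every array of each set, -0.41 for the set 1 pair and -0.43 for set 2, and fell by 0.43 on the log2 scale (± 0.04 SE, n = 4 per group; limma, adjusted p = 0.000517). The docking protein GAB1 fell by 0.47, SOCS2, a feedback inhibitor of growth hormone signalling, by 0.59, and the phosphatase PTPN1 by 0.25. IRS2 went opposite ways in the sets, 0.45 in set 1 and -0.16 in set 2, and did not pass (-0.01, adjusted p = 0.959). INSR, the insulin receptor, did not pass either (-0.09, adjusted p = 0.438).

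Of 28 genes listed for the PI3K, AKT and mTOR kinases, their regulators and their targets, 24 were measured. Of these 24, 3 rose and 2 fell (20.8%, beside 14.2% of all genes), with a median of 0.03. EIF4EBP2, a repressor of translation that mTOR inactivates, rose by 0.49, the AKT phosphatase PHLPP2 by 0.27 and the mTOR activator RHEB by 0.20. The mTOR inhibitor DEPTOR fell by 0.53 and GSK3A by 0.24. The paired fit did not call RHEB (adjusted p = 0.0873), nor did any fit without 1 array of set 2 (0.0696 to 0.111). PHLPP2 was not called in array set 2 alone (0.0522), or without CDK9 siRNA replicate 2 or 3 or any 1 control of set 2 (0.0536 to 0.0834). Array set 2 alone called 7 of the 24 genes, beside 18.1% of all genes. Of 12 RAS and ERK genes listed, only 6 were measured. Among these 6, MAPK3, which encodes the kinase ERK1, fell by 0.68 and the other 5 did not pass (16.7% called, beside 14.2% of all genes).

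FOXO factors, which AKT holds in the cytoplasm, and genes they are known to activate went in both directions: of 15 genes, 2 rose and 4 fell (40.0%, beside 14.2% of all genes), with a median of -0.07. TXNIP (0.67) and SESN3 (0.31) rose, and CCNG2 (-0.47), FOXO4 (-0.39), TRIB1 (-0.31) and SOD2 (-0.24) fell. The set 1 pair of CCNG2 differed by -1.12 and the set 2 means by -0.25. CCNG2 and SOD2 were not called in the paired fit (adjusted p = 0.0967 and 0.0981), nor was SOD2 in array set 2 alone (0.0940). Array set 2 alone called 7 of the 15 genes, beside 18.1% of all genes. CCNG2 also lost its call without any 1 array of set 2 (0.0611 to 0.0756), with median centring and with the robust variance trend. SOD2 lost it with median centring and without any 1 array of set 2 except control replicate 4 (0.0512 to 0.113), and TRIB1 without control replicate 3 or 4 (0.05004 to 0.05232).

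The other ligands, receptors, carriers and binding proteins of the axis had 0 of 10 called in limma, beside 14.2% of all genes. The IGF2 mRNA-binding proteins and LIN28 factors had 0 of 5 called. At an unadjusted limma p under 0.05, 0 of these 15 passed, beside at least 5149 of all 18417 genes. IGFBP1 differed by -0.04, and IGF2BP1, IGF2BP2 and IGF2BP3, which bind IGF2 mRNA, by -0.08, 0.03 and -0.03.

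**Figure D4:**
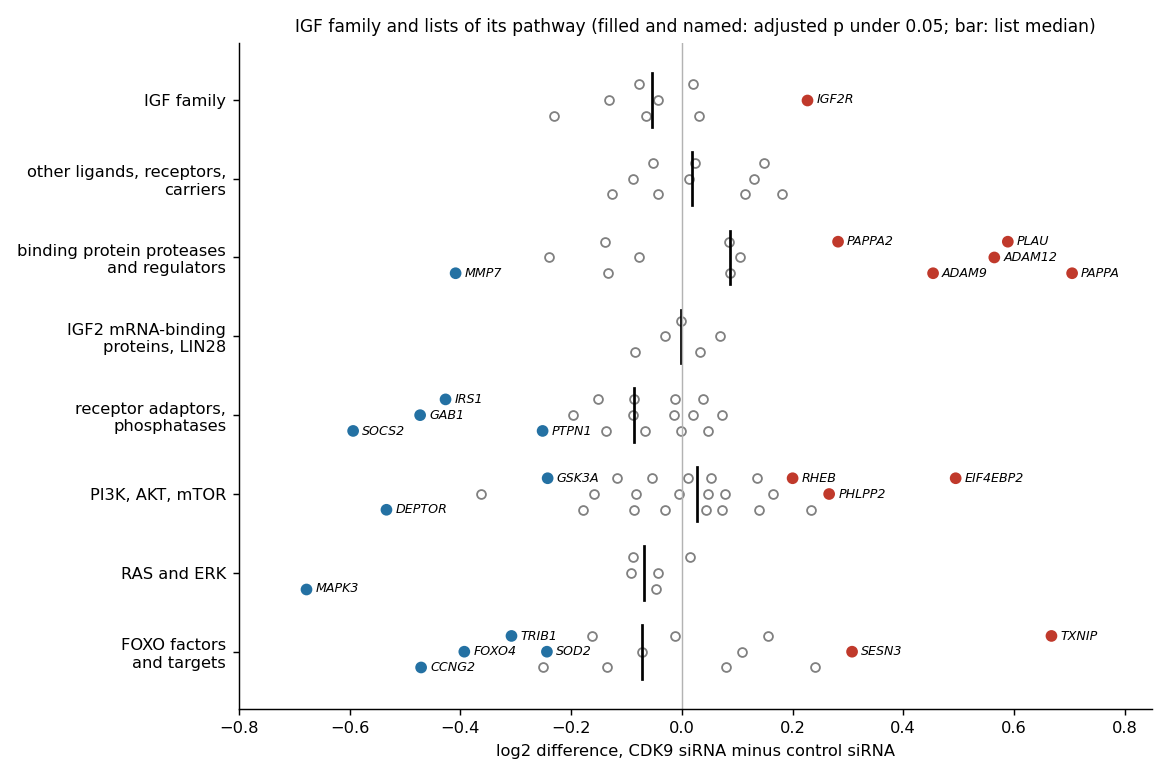
Log2 differences between CDK9 siRNA and control siRNA of the IGF family and of the 7 pathway lists; each point is a gene (vertical position within a row has no meaning), filled and named where the adjusted p was under 0.05, red for higher and blue for lower, and the bar is the list median. IGF2R is the only filled point of the family. The list rows hold 6 filled points for proteases, 6 for FOXO genes, 5 for the PI3K, AKT and mTOR list, 4 for the adaptor list and 1 for RAS and ERK.

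The genes whose array-to-array pattern was most like that of IGF2R, the member with the smallest p, were SLC35F2, TMCO6, CCN2, NETO1 and TMEM33. Their Pearson correlations with IGF2R over the 8 arrays, after subtraction of the array set mean, were 0.995, 0.990, 0.986, 0.985 and 0.984. The arrays share the group difference, so this measure favours genes that rose: the log2 differences were 0.14, 0.30, 0.54, 0.64 and 0.19, of which that of SLC35F2 did not pass (adjusted p = 0.0882).

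Markers of the labelled cell type were present and some moved with the groups. Of 11 mesenchymal and osteoblast markers measured, 1 was dim, 5 fell and 0 rose (45.45% called, beside 14.2% of all genes). Those that fell were FN1 (-0.81), CDH11 (-0.75), RUNX2 (-0.60), COL1A1 (-0.51) and VIM (-0.19, adjusted p = 0.0808 in the paired fit). The other 6 did not pass, and 3 of them had positive differences: CDH2 (0.11), ALPL (0.07) and THY1 (0.05). COL1A2 (-0.23), SPARC (-0.23) and TWIST1 (-0.03) had negative differences. In array set 2 alone, CDH2 passed as higher (limma, adjusted p = 0.0196) and COL1A2 as lower (0.00626). For both of these genes the set 1 pair went the other way. The sum of the log2 values of all 11 markers in array set 2 was 103.3 to 103.7 after CDK9 siRNA and 106.1 to 106.9 in the controls. Epithelial, blood and endothelial markers were dim in 4 of 7, 4 of 7 and 6 of 7 genes, and their sums overlapped between the groups. In these lists EPCAM (0.32) and TEK (0.30), both dim, rose, and CD68 fell by 0.31. That is 1 gene of 7 in each list (14.29%, beside 14.2% of all genes). In the paired fit EPCAM and CD68 were not called (adjusted p = 0.0841 and 0.0645). Whether the differences of these markers bear on those of the IGF family was not tested.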

How the data were processed

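Gene expression was measured in 8 arrays of U2OS cells, 4 per group. The deposited table holds log2 expression values of 33297 probe sets, ranging from 2.01 to 14.7; the submitters' processing notes name Affymetrix Expression Console 1.1, build hg19, limma and RMA, without their roles or order. Which arrays were normalized together is not stated. The number of arrays limits the precision. No array pair shared over 50% of its values.

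Symbols came from the platform annotation: 19460 probe sets had 1 symbol, 1754 several and 12083 none. Entrez identifiers of 19429 matched RefSeq (GRCh38.p14). The test was limma 3.58.1 under R 4.3.3 (lmFit, eBayes, two-sided, Benjamini-Hochberg over 18417 genes), blocking on array set. It was also run on data simulated from the same block model with independent noise, which does not test that model. Plots used Python 3.11.15 and matplotlib 3.10.9. Alternatives were no block, the paired fit (block on replicate number), array set 2 alone, median centring, quantile normalization, no dim genes, averaged probe sets, a robust variance trend and each array left out.

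Deviations from group means correlated over genes at 0.822, 0.537, 0.494 and 0.607 for same-numbered replicates 1 to 4, above the limit of 0.1 for treating the numbers as pairs. Different-numbered replicates of set 2 also reached 0.406 to 0.561, so these values do not tell the number from the array set. Within set 2 alone, same-numbered replicates gave 0.108, -0.01 and 0.170, and different-numbered replicates gave -0.175 to 0.076. The pairing comes from the numbers in the sample titles.

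The members and lists were chosen with earlier results of these data known. All members were named, and from each pathway list the called genes, at most the 6 with the largest difference, plus INSR, IRS1, IRS2 and the IGF2 mRNA-binding proteins; STC2, IGFBP1 and the markers were named besides this rule after their values were seen.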

Additional observations from a re-analysis of the deposited data

Results flagged for a closer look

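In 5 of 8 members, as in 51.7% of all genes, replicate 1 stood apart from the other 3 arrays in both groups, by the share of the group's range that lies between it and its nearest neighbour. This share was 0.901 (CDK9 siRNA) and 0.892 (control) for IGF1, 0.954 and 0.960 for IGF1R, 0.904 and 0.944 for IGF2R, 0.964 and 0.969 for IGFBP5, and 0.965 and 0.960 for IGFBP7, above the limit of Dixon's test for 4 arrays. Chance alone passes that limit in about 1 of 20 groups. Replicate 1 is array set 1, whose array medians are lower.

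In 8 of the 90 pathway genes (8.89%, beside 2.14% of all genes) the group difference itself differed between the array sets in limma. They include 3 of the genes named in the text. Subtracting the set 2 difference from the set 1 difference gave 0.72 for ADAM12, -0.87 for CCNG2 and 0.61 for IRS2, with adjusted p of 0.0250, 0.0142 and 0.0345. ADAM12 and CCNG2 kept their direction in both sets, and IRS2 did not. The other 5 were PIK3CB (-0.86), PIK3R3 (-1.03), BCL6 (-0.62), CDKN1B (-0.78) and CITED2 (-1.12), named after their values were seen. PIK3R3 was lower in both sets, while PIK3CB, BCL6, CDKN1B and CITED2 were lower in the set 1 pair and higher in set 2. In array set 2 alone, PIK3CB, BCL6 and CDKN1B passed as higher (limma, adjusted p = 0.0039, 0.0082 and 0.0027).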

How the results depend on the processing

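Leaving out either array of set 1 equals the fit of array set 2 alone and is counted once with it. IGF2R was higher in 14 of 14 such alternatives (log2 difference 0.17 to 0.26) and was called in 6 of the 13 with a block or within array set 2 (adjusted p = 0.00457 to 0.0802). IGFBP5 was lower in 14 of 14 (-0.27 to -0.15) and was called in 3 of 13 (adjusted p = 0.0135 to 0.145). Among members, IGFBP3 alone reversed in sign: it differed by -0.0549 in array set 2 alone, and by -0.0549 to 0.068 when 1 array at a time was left out. The number of members called was 0 without a block and in the paired fit (replicate block). It was 2 without the lowest 30% of genes by mean, with the robust variance trend and, in a count added after seeing the data, where groups did not overlap within array sets. It was 0 to 1 when 1 array was left out. Without a block, 0 genes passed in limma (unadjusted p under 0.05 in 28 genes upwards and 23 downwards), and 0 pathway genes of 22, because the gap between array sets enters the residual. In the paired fit 1688 genes passed, 1651 of them among the 2615 of the main result. Leaving out 1 array gave 1520 to 3331 genes and 17 to 25 pathway genes; the gene count moved by over 1.5 times without CDK9 siRNA replicate 3 (1654) and without control replicate 2 (1715), 3 (1520) or 4 (1685). The replicate block changed no other call of a member. The number of genes whose difference differed between sets rose from 395 to 1309 when dim genes were left out; the cause was not tested.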

Other observations

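The 4 genes with a wider gap between array sets than IGFBP5 in the controls, named after their values were seen, were KCNA1 (4.77), the hyaluronan synthase HAS2 (4.43), the selenoprotein SELENOP (4.36) and FOS (3.87). The same control arrays enter the group difference, so none is read from these genes.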
